A study of Mus musculus with 21 samples.

Results

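The 6 genes described here encode surface proteins that are used as antibody targets when mouse keratinocytes are sorted: Cd34, Cd200, Cd24a, Cd44, Ly6a and Ly6d. They were chosen by name, as the rows of the 3 deposited tables that carry these gene symbols. Each symbol had 1 locus in every table, and the 6 stand among 43635 symbols for which that holds. The series holds 21 libraries of polyadenylated mouse RNA in 7 groups of 3, all labelled as keratinocytes from epidermis. Its aims were to identify the cells that grow in 3C cultures, in which total epidermal cells are kept for 10 to 14 days, and to find early changes under one drug described as depleting hair follicle stem cells (HFSCs) and another described as enriching them.

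The table of 3 populations covers wild-type HFSCs purified by flow cytometry, wild-type total epidermal cells and wild-type cultured HFSCs. Its columns are named CD34a6, HFSC and bulk. Bulk was read as total epidermal cells, but no label ties the other columns to the freshly sorted or to the cultured HFSCs, so the column names are kept. The second table compares 3C cultures sorted into a CD34+ alpha-6 integrin+ fraction and a CD34neg alpha-6 integrin+ fraction. The third compares 3C cultures after 48 h with dorsomorphin, an inhibitor of BMP type I receptors, or with cyclopamine, an inhibitor of the Hedgehog transducer Smoothened. No genotype is labelled for these 12 libraries, and neither drug was set against an untreated culture in these tables. Strain, age and sex are not given in the sources used here. Separate animals or cultures are not stated for the 3 libraries of any group, so the authors' p-values may measure technical spread only.

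CD34 is a sialomucin of the cell surface and, together with alpha-6 integrin, the standard gate for stem cells of the mouse hair follicle bulge. CD200 is a membrane glycoprotein that restrains myeloid cells through its receptor and also marks bulge cells. CD24 is a small, heavily glycosylated protein, CD44 is the main receptor for hyaluronan, and LY6A (also called SCA-1) and LY6D belong to the Ly6 family of three-finger proteins. CD24, LY6A and LY6D are held in the membrane by a glycosylphosphatidylinositol (GPI) anchor. In mouse skin LY6A is known as a marker of interfollicular and infundibular keratinocytes that is low in the bulge.

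Levels are in FPKM (fragments scaled to transcript length and to the mapped fragments of a library), a unit per length, so genes can be compared within a population. The authors deposited 1 FPKM value per locus and population, with no value per library, so no spread between replicates can be set beside a level. Their p-value and adjusted p are the only measure of error, read depth is unknown, and the calls used here are those with an adjusted p under 0.05. The tables were normalized separately, so tests stay within a table. Between 17798 and 20072 of 43923 loci were above 0 in a population. The summed FPKM ran from 406712 in CD34a6 to 917071 in bulk. Defining keratinocyte genes were present throughout, with Krt5 between 3619 and 6893 FPKM, and all 11 of the keratinocyte genes followed reached 1 FPKM in every population except CD34+, where 9 did. In bulk RNA, fewer cells of a type and less RNA per cell cannot be told apart.

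Between CD34a6 and bulk, Cd34, Cd24a and Cd44 were higher in CD34a6 and Ly6a and Ly6d were lower. Of the 6 genes, 3 were called higher and 2 lower, while 22.0% of all loci tested were called higher and 24.3% lower (46.3% in either direction). Between HFSC and bulk, Cd24a, Cd44 and Ly6a were higher in HFSC and Cd200 and Ly6d were lower, again 3 higher and 2 lower beside 19.0% and 24.7% of all loci (43.7% in either direction). Between HFSC and CD34a6, Cd24a, Cd44, Ly6a and Ly6d were higher in HFSC and Cd34 and Cd200 were lower, 4 and 2 beside 25.2% and 29.0% of all loci (54.2% in either direction). These comparisons share their populations in pairs and are not independent of each other. The median log2 difference of the 6 genes, taken on log2(FPKM + 1), was 1.097, 0.80 and 1.19 in that order, beside medians of 0.0029, -0.11 and -0.07 over all loci tested. Cd34, whose protein was a gate of the sort, is included in these counts and medians.

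**Figure D1:**
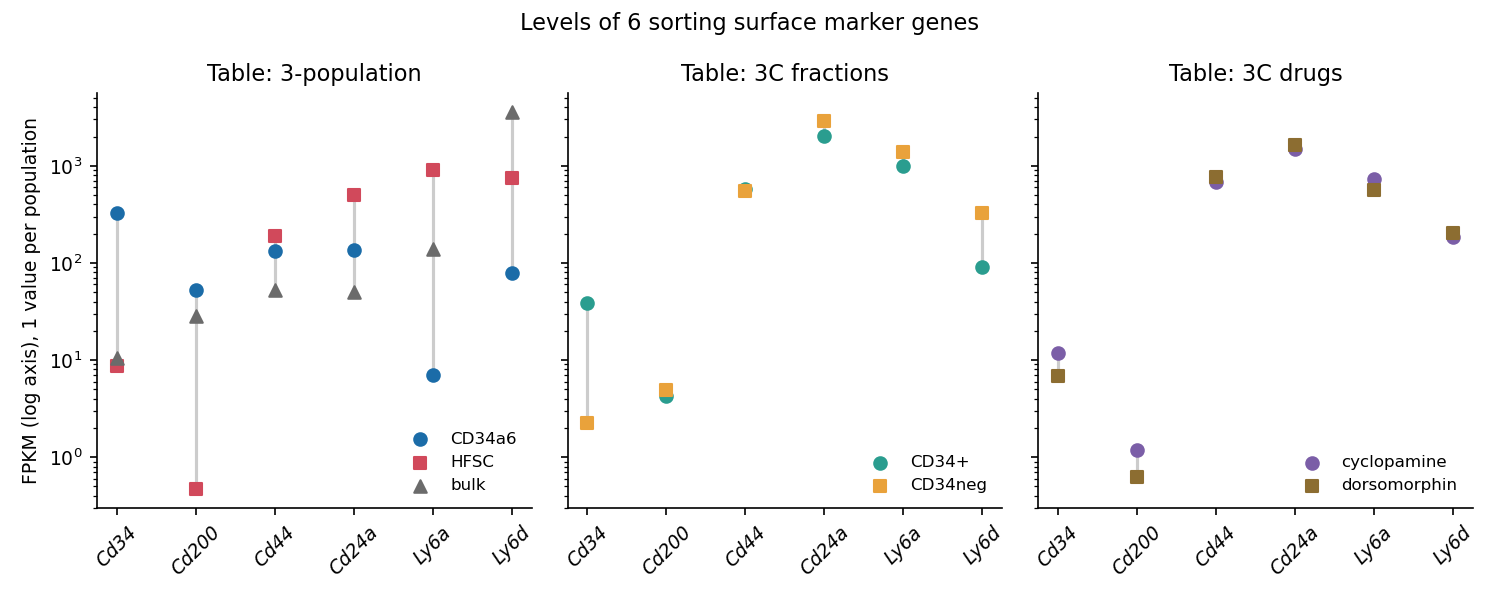
FPKM of the 6 genes on a log axis, with 1 panel for each deposited table and 1 point for each population (1 value per population, no error available). Cd34 and Cd200 stand highest in CD34a6, Ly6a in HFSC and Ly6d in bulk, and in the CD34+ and CD34neg fractions Cd34 and Ly6d are the genes whose points lie farthest apart.

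Cd34 lies on the plus strand of chromosome 1 (GRCm38), and GENCODE vM21 places the gene at 194938819 to 194961279 with 5 transcripts. The deposited locus is wider, from 194938819 to 195092249, and takes in Cd46, a complement regulator on the other strand whose gene starts 75546 bases beyond the end of Cd34. Cd46 has a row of its own over the same span, with between 0.114 and 0.987 FPKM in the 7 populations. Gm16897, an antisense gene over Cd34, did not exceed 0.907 FPKM. The library kit was directional, but whether strand was used in quantification is not given in the sources used here.

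The Cd34 level was 327 FPKM in CD34a6, 8.70 FPKM in HFSC and 10.6 FPKM in bulk. It stood at rank 119 from the highest among all loci in CD34a6, at rank 7086 in HFSC and at rank 6446 in bulk. Thus 1 population was high and the other two were close together. In the authors' deposited table the level in CD34a6 was 30.9-fold that in bulk (log2 ratio 4.95, adjusted p 0.000212). HFSC was 37.6-fold lower than CD34a6 (log2 ratio -5.23, adjusted p 0.000212), also from the authors' deposited table. HFSC and bulk were not separated (log2 ratio -0.28, p 0.244, adjusted p 0.325 in the authors' deposited table). CD34 was a gate of the sort, so these Cd34 differences are given as a description.

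In the 3C fractions the Cd34 level was 38.7 FPKM in CD34+ and 2.26 FPKM in CD34neg. The ratio was 17.1 (log2 ratio 4.10, adjusted p 0.00275 in the authors' deposited table), which checks the labels of these fractions, since they were sorted on this protein. Under the drugs Cd34 was at 11.7 FPKM with cyclopamine and 6.87 FPKM with dorsomorphin. The dorsomorphin cultures were 1.71-fold lower (log2 ratio -0.77), which missed the threshold narrowly in the authors' deposited table (p 0.0014, adjusted p 0.0530).

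Endothelial cells and fibroblasts also carry CD34. Of 13 endothelial and mural marker genes, 2 reached 1 FPKM in CD34a6, and the list summed to 70.4 FPKM there, 70.0 in HFSC and 7.14 in bulk. The sum in CD34a6 was mostly Cspg4 (67.6 FPKM), a proteoglycan of pericytes that other cells also express, and in HFSC it was mostly Acta2 (62.1 FPKM), smooth muscle actin. The other gene to reach 1 FPKM in CD34a6 was Tek, an endothelial receptor gene, at 1.17 FPKM against 0.0624 FPKM in HFSC (adjusted p 0.000212) and 0.0192 FPKM in bulk (adjusted p 0.128), with p-values from the authors' deposited table. Of other endothelial genes in CD34a6, Vwf was at 0.682 FPKM, Pecam1 at 0.260 FPKM, Cdh5 at 0.0858 FPKM and Kdr at 0.0351 FPKM. Pecam1 was instead higher in HFSC, at 0.955 FPKM (adjusted p 0.000932 against CD34a6 and 0.000404 against bulk). Acta2 was lower in CD34a6 than in bulk (0.289 against 1.19 FPKM, adjusted p 0.000761). Flt1 was higher in HFSC than in bulk (0.798 against 0.0373 FPKM, adjusted p 0.00142), with p-values from the authors' deposited table. In HFSC against CD34a6 2 of the 6 genes tested were higher and 2 lower, beside 25.2% and 29.0% of all loci. In the 3C fractions the list summed to 43.6 FPKM in CD34+ and 14.97 FPKM in CD34neg, again mostly Acta2, with Cdh5 at 0 in both. The 2 genes tested there, Acta2 (31.8 against 12.9 FPKM) and Cspg4 (10.9 against 1.02 FPKM), were called higher in CD34+, beside 2.08% of all loci. Each had adjusted p 0.00275 in the authors' deposited table. Of 12 fibroblast genes, 4 reached 1 FPKM in CD34a6, where Lum and Col3a1 were listed at 0. Of the 4 genes tested in CD34a6 against bulk, 2 were higher and 1 lower, beside 22.0% and 24.3% of all loci. The collagen genes Col1a1 (22.4 against 1.21 FPKM) and Col1a2 (8.08 against 0.825 FPKM) were higher, with adjusted p 0.000212 in the authors' deposited table. Vim was lower (5.53 against 56.6 FPKM, adjusted p 0.000212). Dcn was not called (2.58 against 1.99 FPKM, adjusted p 0.368), with p-values from the authors' deposited table. The fibroblast sums were 38.8 FPKM in CD34a6, 1.20 in HFSC and 61.0 in bulk (56.6 of it Vim, which many cell types express), 1.54 and 1.25 in CD34+ and CD34neg, and 17.9 and 30.0 with cyclopamine and dorsomorphin. The part of these cells in the Cd34 difference was not tested.

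The 250 bases before the annotated start of Cd34 (RefSeq, GRCm38.p6, plus strand, chr1:194938571-194938820) are shown with the corresponding stretch of Cd200 (minus strand, chr16:45409054-45409303), because these are the 2 genes that were high in CD34a6 and low in HFSC. They are written 5′ to 3′ along the gene, and capitals mark a motif match.
Cd34: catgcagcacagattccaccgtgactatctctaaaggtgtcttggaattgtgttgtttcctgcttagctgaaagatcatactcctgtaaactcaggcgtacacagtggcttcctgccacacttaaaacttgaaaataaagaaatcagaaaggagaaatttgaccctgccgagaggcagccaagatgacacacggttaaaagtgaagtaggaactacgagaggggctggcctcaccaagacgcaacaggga
Cd200: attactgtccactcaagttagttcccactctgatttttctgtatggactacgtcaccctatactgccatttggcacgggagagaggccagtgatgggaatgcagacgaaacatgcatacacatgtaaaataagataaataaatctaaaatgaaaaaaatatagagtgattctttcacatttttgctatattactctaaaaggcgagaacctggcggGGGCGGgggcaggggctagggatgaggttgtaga
Both strands were searched for the GC box GGGCGG, for the TATA-type letters TATAAA, for the CCAAT box, for the AP-1 site TGANTCA and for the E-box CACGTG. The Cd34 stretch held none of these letters, and the Cd200 stretch held 1 GC box, 34 bases before the start. Among 32851 promoters of the same length, 32.7% held a GC box, 12.4% the letters TATAAA, 33.8% a CCAAT box, 6.75% an AP-1 site and 6.02% the E-box. The G and C content was 46.4% for Cd34 and 42.4% for Cd200, beside a median of 52.4% over all these promoters. The third promoter found among the 6 genes, that of Cd44, had 56.4% and no match. The promoters of Cd24a, Ly6a and Ly6d were not analysed here.

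Cd200 lies on the minus strand of chromosome 16 from 45382135 to 45409053, with 11 annotated transcripts, and the deposited locus has the same ends. Its level was 52.7 FPKM in CD34a6, 0.465 FPKM in HFSC and 28.2 FPKM in bulk. The order was CD34a6, bulk, HFSC, with the first and second of these close and HFSC far lower. HFSC was 60.8-fold lower than bulk (log2 ratio -5.93, adjusted p 0.000212 in the authors' deposited table). It was 113-fold lower than CD34a6 (log2 ratio -6.82, adjusted p 0.000212 in the authors' deposited table). CD34a6 and bulk differed by 1.87-fold, which missed the threshold (p 0.174, adjusted p 0.250 in the authors' deposited table).

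In the 3C fractions Cd200 was at 4.31 FPKM in CD34+ and 4.92 FPKM in CD34neg, a log2 ratio of -0.19 with adjusted p 0.785 in the authors' deposited table. The drug cultures had 1.19 FPKM with cyclopamine and 0.630 FPKM with dorsomorphin, and the authors' deposited table gives no test for this pair. Unlike Cd34, the other gene known from the bulge, Cd200 was not called between the CD34 fractions. That difference between the 2 genes was not tested. Scaling each population to the same summed FPKM turned the direction for Cd200 between the fractions, from -0.16 to 0.19 on log2(FPKM + 1). The receptor gene Cd200r1, expressed by myeloid cells, was at 0 in CD34a6, HFSC and all 3C populations and at 0.0624 FPKM in bulk.

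Cd44 lies on the minus strand of chromosome 2 from 102811141 to 102901665, with 9 annotated transcripts over 19 merged exons. The deposited values sum over the locus, so standard and variant forms of CD44 cannot be told apart. The level was 131 FPKM in CD34a6, 190.2 FPKM in HFSC and 52.0 FPKM in bulk. All 3 populations were within a few fold of each other, with bulk lowest. In the authors' deposited table Cd44 was 2.52-fold higher in CD34a6 than in bulk (log2 ratio 1.33, adjusted p 0.000212) and 3.66-fold higher in HFSC than in bulk (log2 ratio 1.87, adjusted p 0.000212). The step from CD34a6 to HFSC was 1.45-fold (log2 ratio 0.54, adjusted p 0.00806 in the authors' deposited table).

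The 3C fractions held 571 FPKM of Cd44 in CD34+ and 546 FPKM in CD34neg, a ratio of 1.05 (adjusted p 0.903 in the authors' deposited table). The drug cultures held 687 FPKM with cyclopamine and 769 FPKM with dorsomorphin, a ratio of 1.12 (adjusted p 0.806 in the authors' deposited table). Cd44 stood at ranks between 67 and 177 from the highest in these 4 culture populations, and neither pair passed the threshold.

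The ligand side of CD44 is hyaluronan, made by the Has synthases, and its cytoplasmic tail is tied to actin by ezrin, radixin and moesin. Has2 was at 2.92 FPKM in CD34a6, 5.15 FPKM in HFSC and 0.125 FPKM in bulk. Has3 was at 0.0957 FPKM, 6.66 FPKM and 0.208 FPKM in the same order. HFSC was higher than bulk for Has2 (log2 difference 2.45 on log2(FPKM + 1), adjusted p 0.000212) and for Has3 (2.66, adjusted p 0.00806), with p-values from the authors' deposited table. Moesin (Msn) rose from 28.2 FPKM in bulk to 77.6 FPKM in CD34a6 and 317 FPKM in HFSC, and both steps passed (adjusted p 0.000212 in the authors' deposited table). Ezrin (Ezr) was instead highest in bulk, at 220.1 FPKM, with 63.1 FPKM in CD34a6 and 139.5 FPKM in HFSC. Radixin (Rdx) was highest in CD34a6, at 74.8 FPKM, with 46.6 FPKM in HFSC and 30.1 FPKM in bulk. HFSC against bulk was not called for Ezr (adjusted p 0.109) or Rdx (adjusted p 0.0650) in the authors' deposited table. The other pairs passed for both genes (adjusted p 0.000212 in the authors' deposited table).

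These genes belong to a list of 20 ligands, receptors and partners of the 6 proteins. In CD34a6 against bulk, 5 of its 9 tested genes were higher and 1 was lower, with a median log2 difference of 1.28, beside 22.0% and 24.3% of all loci. For HFSC against bulk 7 of 12 were higher and 0 lower (median 0.74), beside 19.0% and 24.7% of all loci, with 9 higher and 0 lower at an unadjusted p under 0.05 in the authors' deposited table. For HFSC against CD34a6 6 of 12 were higher and 2 lower (median 0.68), beside 25.2% and 29.0%. In the CD34 fractions 1 of 10 was called, beside 6.79% of all loci in either direction. It was the hyaluronidase Tmem2, higher in CD34+ (5.82 against 3.15 FPKM, adjusted p 0.0407 in the authors' deposited table). Under the drugs 1 of 11 was called, beside 2.57% of all loci in either direction. It was Spp1 (osteopontin, a CD44 ligand), lower with dorsomorphin (60.9 against 94.7 FPKM, adjusted p 0.00859 in the authors' deposited table). Sele, the endothelial selectin gene, was at 0 in every population.

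Cd24a lies on the plus strand of chromosome 10, from 43579169 to 43584262 in the deposited tables. Its level was 137 FPKM in CD34a6, 495 FPKM in HFSC and 50.5 FPKM in bulk. HFSC was high and bulk low, with CD34a6 between them. HFSC was 9.80-fold higher than bulk (log2 ratio 3.29) and 3.61-fold higher than CD34a6 (log2 ratio 1.85), both with adjusted p 0.000212 in the authors' deposited table. CD34a6 was 2.72-fold higher than bulk (log2 ratio 1.44, adjusted p 0.000212 in the authors' deposited table).

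In the 3C fractions Cd24a stood at 2035 FPKM in CD34+ and 2886 FPKM in CD34neg. The drug cultures held 1503 FPKM with cyclopamine and 1648 FPKM with dorsomorphin. At ranks 22 to 29 in these 4 populations it was the highest of the 6 genes. Neither pair passed: the log2 ratio was -0.50 for CD34+ against CD34neg (p 0.0944, adjusted p 0.307) and 0.13 for dorsomorphin against cyclopamine (adjusted p 0.842), in the authors' deposited table. Of the 50-base windows of Cd24a transcripts, 2.75% also occur in Gm6212, so a small part of its reads could be shared with that gene.

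Ly6a and Ly6d lie on the minus strand of chromosome 15, at 74994877 to 74998031 and at 74762056 to 74763620. The gap between them is 231256 bases, and 14 of the 25 Ly6 and uPAR family genes followed here are on this chromosome. Ly6a was at 7.05 FPKM in CD34a6, 904 FPKM in HFSC and 139.8 FPKM in bulk. CD34a6 was lowest and HFSC highest, a spread wider than that of any other of the 6 genes in this table. HFSC was 128-fold higher than CD34a6 (log2 ratio 7.002) and 6.47-fold higher than bulk (log2 ratio 2.69), both with adjusted p 0.000212 in the authors' deposited table. CD34a6 was 19.8-fold lower than bulk (log2 ratio -4.31, adjusted p 0.000212 in the authors' deposited table).

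Ly6a held 1004 FPKM in CD34+ and 1381 FPKM in CD34neg, a log2 ratio of -0.46 that did not pass (p 0.0544, adjusted p 0.232 in the authors' deposited table). With the drugs it was at 736 FPKM under cyclopamine and 558 FPKM under dorsomorphin, a log2 ratio of -0.40 with p 0.0019 and adjusted p 0.0634 in the authors' deposited table. It was thus among the 111 highest loci in both fractions and both drug cultures. In all 4 of these populations it stood far above Cd34, a contrast with the CD34a6 population, where Cd34 was 46.4-fold higher than Ly6a.

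Part of Ly6a cannot be told apart from its relatives by short reads. Of the 50-base windows of Ly6a transcripts, 19.0% also occur in other genes and 15.03% in Ly6c1 (GENCODE vM21). The first 90 bases of both coding sequences are shown because the longest run they share lies there. Capitals mark the 4 bases at which they differ, and both are written 5′ to 3′.
Ly6a: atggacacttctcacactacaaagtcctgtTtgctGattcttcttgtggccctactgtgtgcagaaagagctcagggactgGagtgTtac
Ly6c1: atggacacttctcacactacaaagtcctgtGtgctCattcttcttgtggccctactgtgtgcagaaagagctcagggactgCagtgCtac
The shared run covers 45 bases, from 37 to 81 of the Ly6a coding sequence. The coding sequences were 76.3% identical over 393 aligned bases, while Ly6a and Ly6d were 60.1% identical with a longest shared run of 10 bases. Ly6c1, which marks monocytes and endothelial cells, was at 0.692 FPKM in CD34a6, 39.5 FPKM in HFSC and 20.5 FPKM in bulk. It was at 15.2 FPKM in CD34+, 20.7 FPKM in CD34neg, 6.64 FPKM with cyclopamine and 2.88 FPKM with dorsomorphin, below Ly6a in every population. How the authors' quantification divided shared reads is not given in the sources used here, so the Ly6c1 values in particular are uncertain.

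Ly6d has 1 annotated transcript and shares no 50-base window with another gene. Its level was 79.4 FPKM in CD34a6, 741 FPKM in HFSC and 3550.1 FPKM in bulk. Bulk was high, HFSC lay between and CD34a6 was low. It was 44.7-fold lower in CD34a6 than in bulk (log2 ratio -5.48) and 4.79-fold lower in HFSC than in bulk (log2 ratio -2.26), both with adjusted p 0.000212 in the authors' deposited table. HFSC was 9.33-fold higher than CD34a6 (log2 ratio 3.22, adjusted p 0.000212 in the authors' deposited table).

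In the CD34 fractions Ly6d was at 91.1 FPKM in CD34+ and 326 FPKM in CD34neg. The CD34+ fraction was 3.58-fold lower (log2 ratio -1.84, adjusted p 0.00275 in the authors' deposited table). Ly6d was not named in the labels as a gate of this sort. It was the only one of the 6 genes besides Cd34, the gate gene, to be called here. The counts were 1 higher (Cd34) and 1 lower, beside 2.08% and 4.71% of all loci (6.79% in either direction). The rows Rn18s-rs5 (18S ribosomal RNA) and Yam1 together held 17480 FPKM in CD34+ and 42655 FPKM in CD34neg, and their part in these differences was not tested. The median of the 6 genes, Cd34 included, was -0.31 on log2(FPKM + 1), beside -0.07 over all loci tested. The drug cultures held 183 FPKM of Ly6d with cyclopamine and 201 FPKM with dorsomorphin (log2 ratio 0.14, adjusted p 0.763 in the authors' deposited table).

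Between the drugs none of the 5 tested genes was called in the authors' deposited table, beside 2.57% of all loci (1.26% higher and 1.31% lower with dorsomorphin). At an unadjusted p under 0.05 there were 2, Cd34 and Ly6a, both lower with dorsomorphin. The median of the 5 was 0.13 on log2(FPKM + 1), beside -0.02 over all loci tested. Of the 11 keratinocyte genes followed, 1 was called higher and 1 lower with dorsomorphin. The lower was Krt15, the keratin of bulge and basal cells (3.61 against 20.6 FPKM with cyclopamine, adjusted p 0.00479). The higher was Krt1 (12.4 against 6.52 FPKM, adjusted p 0.00479), with p-values from the authors' deposited table.

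**Figure D2:**
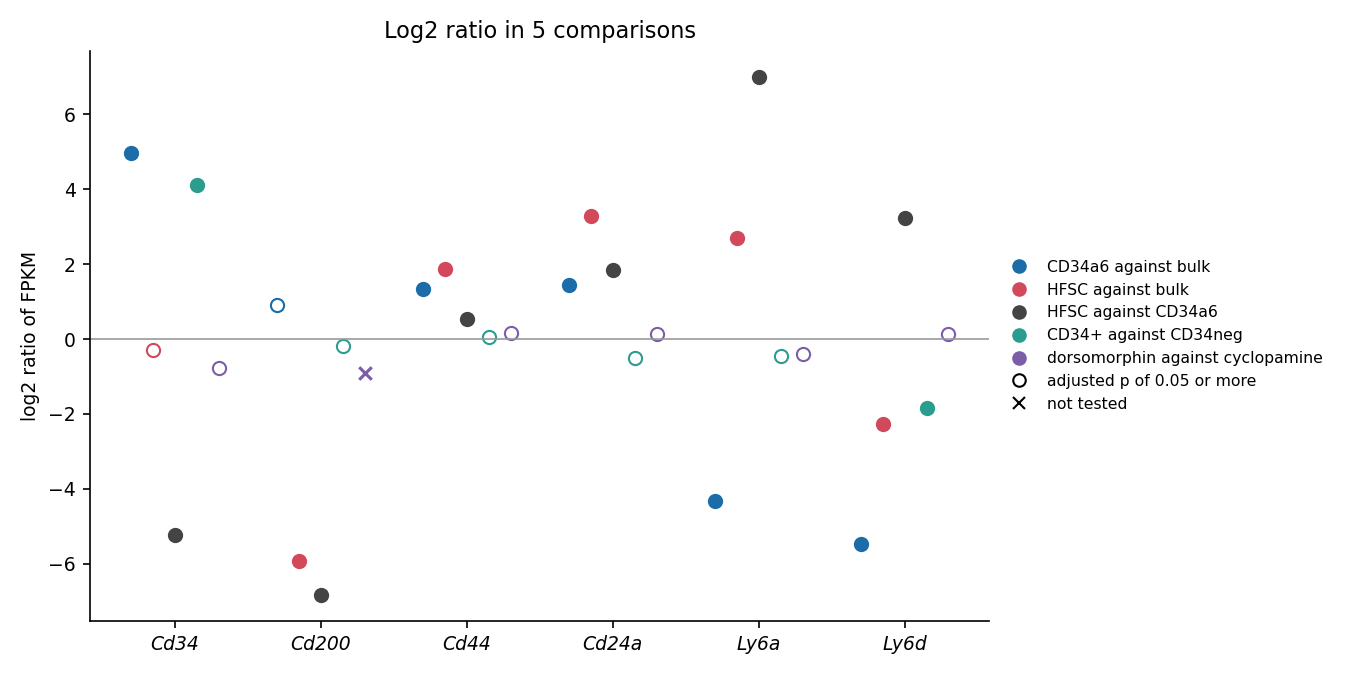
Log2 ratio of FPKM for the 6 genes in the 5 comparisons, from the authors' deposited tables, with filled points for an adjusted p under 0.05, open points for 0.05 or more and a cross for a pair without a test. In HFSC against CD34a6 all 6 points are filled, from -6.82 for Cd200 to 7.002 for Ly6a, and with dorsomorphin against cyclopamine none is.

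Leukocytes can also carry these proteins. The 19 immune marker genes summed to 616 FPKM in bulk, 12.0 in CD34a6 and 8.91 in HFSC, and 16 of them reached 1 FPKM in bulk against 5 and 3. Cd74 led in bulk at 159 FPKM, and Cd3e was at 14.8 FPKM there. In the 3C fractions the list summed to 12.1 FPKM in CD34+ and 11.0 in CD34neg, and with the drugs to 39.3 under cyclopamine and 45.6 under dorsomorphin. The drug sums were mostly Cd68 (26.1 and 25.6 FPKM) and H2-Ab1 (9.65 and 17.9 FPKM). These 2 were the genes tested, and H2-Ab1 was called higher with dorsomorphin (adjusted p 0.0115 in the authors' deposited table), beside 1.26% of all loci. Ptprc, the common leukocyte gene, was at 0 in HFSC, CD34+, CD34neg and cyclopamine, at 0.0409 FPKM with dorsomorphin, at 0.0544 FPKM in CD34a6 and at 2.21 FPKM in bulk. Erythroid and muscle genes, 9 in all, summed to 218 FPKM in bulk and to between 3.41 and 11.3 FPKM elsewhere. The 14 melanocyte and Merkel cell genes summed to 25.2 FPKM in CD34a6, led by Mitf at 13.9 FPKM, and to between 2.74 and 8.40 FPKM elsewhere. Of the 6 genes tested in CD34a6 against bulk, 3 were higher and 1 lower, beside 22.0% and 24.3% of all loci. Dct was among the higher (7.29 against 2.63 FPKM, adjusted p 0.00142). Tyrp1 was lower (0.348 against 1.18 FPKM, adjusted p 0.00891), with p-values from the authors' deposited table. Pmel, at 0.643 against 2.57 FPKM, was not called. The part of these cells in the differences between populations was not tested. The suprabasal keratin Krt10 also differed, with 874 FPKM in CD34a6, 41.5 FPKM in HFSC and 25128 FPKM in bulk, and so did its partner Krt1, with 125, 10.7 and 3056 FPKM.

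Ratios within a population need no scaling between tables. Itga6, the alpha-6 integrin of the same gate, was at 155 FPKM in CD34a6, 306 FPKM in HFSC and 72.4 FPKM in bulk, and between 327 and 436 FPKM in the 3C populations. Cd34 over Itga6 was 2.10 in CD34a6, 0.0284 in HFSC and 0.146 in bulk. It was 0.112 in CD34+, 0.00690 in CD34neg, 0.0300 with cyclopamine and 0.0157 with dorsomorphin. Only CD34a6 had more Cd34 than Itga6 among the 7 populations. Between the CD34 fractions Itga6 itself had a ratio of 1.06 (adjusted p 0.843 in the authors' deposited table).

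Ly6a over Ly6d turned over between populations. It was 0.0888 in CD34a6 and 0.0394 in bulk, so Ly6d was the higher gene there. It was 1.22 in HFSC, 11.0 in CD34+, 4.23 in CD34neg, 4.03 with cyclopamine and 2.77 with dorsomorphin, so Ly6a was the higher gene in those 5. These ratios carry no error, since there is 1 value per population.

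**Figure D3:**
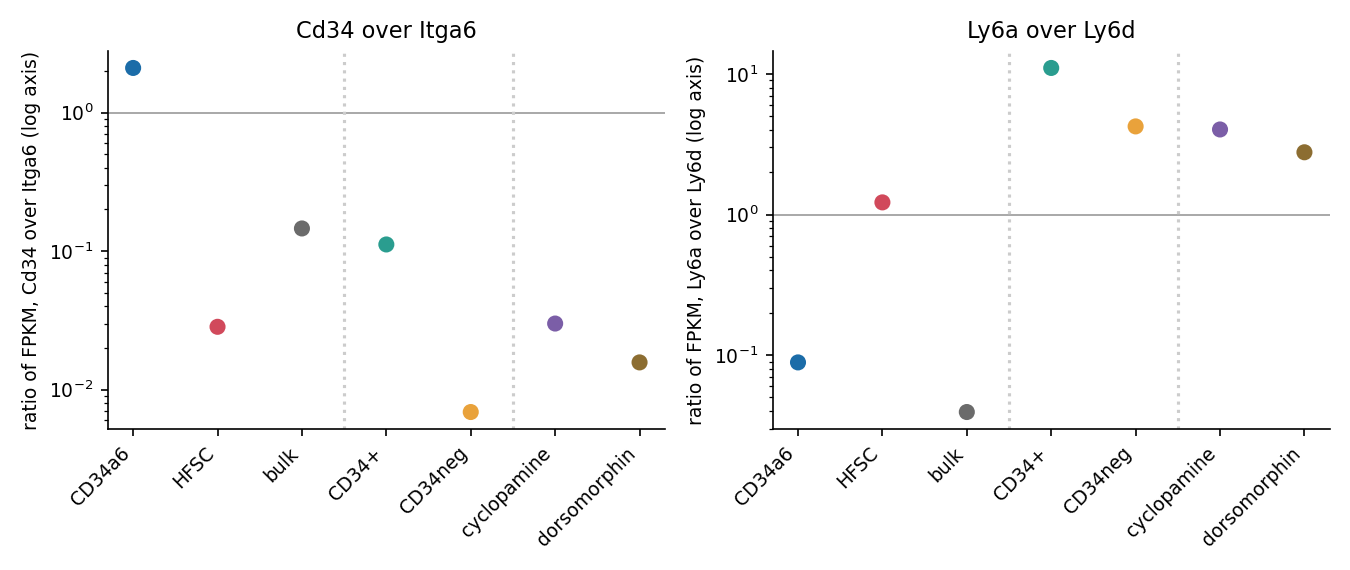
Ratios of FPKM within each of the 7 populations on log axes, Cd34 over Itga6 and Ly6a over Ly6d, with 1 point per population and a line at a ratio of 1. Cd34 over Itga6 lies above the line in CD34a6 only, and Ly6a over Ly6d lies below it in CD34a6 and bulk.

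The wider Ly6 and uPAR family, secreted and anchored, had 1 gene called higher and 12 lower of 19 tested in CD34a6 against bulk, with a median log2 difference of -1.92, beside 22.0% and 24.3% of all loci. Ly6a and Ly6d are counted in it. Among the lower genes were Ly6g6c (51.2 FPKM in CD34a6, 1416 FPKM in bulk), Lypd5 (6.87 and 277 FPKM), Ly6g6e (7.59 and 237 FPKM), Ly6e (15.5 and 296 FPKM) and Slurp1 (1.04 and 71.8 FPKM), a secreted member of cornifying epidermis. Their adjusted p was 0.000212, and 0.00126 for Slurp1, in the authors' deposited table. For HFSC against bulk 4 of 18 were higher and 9 lower (median -1.06, or -1.76 with a pseudocount of 0.1), beside 19.0% and 24.7%. Ly6e was among the higher genes, at 1048 FPKM in HFSC, while Ly6g6c was lower, at 36.7 FPKM.

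For HFSC against CD34a6 8 of 16 were higher and 5 lower (median 1.43), beside 25.2% and 29.0% of all loci. The largest differences were those of Ly6a, Ly6e (log2 difference 5.99), Ly6c1 (4.58) and Ly6d, all on log2(FPKM + 1). Plaur, the urokinase receptor, was also higher in HFSC (6.06 against 0.572 FPKM, adjusted p 0.000212 in the authors' deposited table). In the CD34 fractions 0 of 10 were higher and 4 lower in CD34+ (median -0.44), beside 2.08% and 4.71% of all loci (median -0.07). The counts of the family were the same at an unadjusted p under 0.05 in the authors' deposited table. Besides Ly6d the lower genes were Ly6g6c (8.11 against 23.4 FPKM, adjusted p 0.00656), Lypd5 (1.63 against 6.35 FPKM, adjusted p 0.0107) and Lypd3 (4.91 against 12.2 FPKM, adjusted p 0.00275), with p-values from the authors' deposited table. Under the drugs 0 of 12 were called in the authors' deposited table, beside 2.57% of all loci. At an unadjusted p under 0.05, 2 of the 12 were lower and 0 higher.

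**Figure D4:**
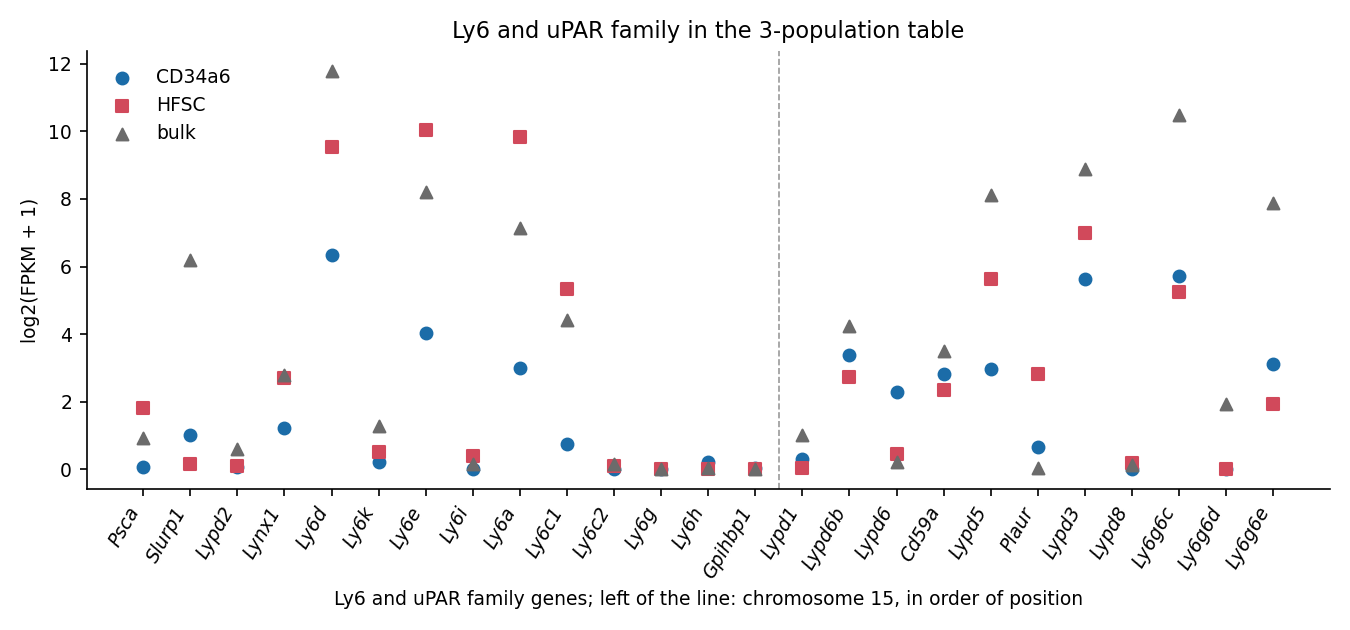
Log2(FPKM + 1) of the Ly6 and uPAR family genes in CD34a6, HFSC and bulk, 1 point per population, with genes on chromosome 15 left of the dashed line in order of position. Ly6a and Ly6e stand highest in HFSC, and Ly6d and Ly6g6c highest in bulk.

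Other surface proteins used to sort keratinocytes were followed in a list of 25 genes. The list includes Itga6, a gate of the sort, and Cd46, whose deposited locus is that of Cd34. Itga6 is counted among the higher genes of CD34a6 against bulk (adjusted p 0.00307 in the authors' deposited table). In CD34a6 against bulk 11 of 24 tested were higher and 5 lower (median 0.74), beside 22.0% and 24.3% of all loci. Lgr5, a receptor of bulge and lower follicle stem cells, was at 70.5 FPKM in CD34a6 and 1.88 FPKM in bulk, and Lgr6, its relative of the isthmus, at 48.6 and 8.59 FPKM (adjusted p 0.000212 in the authors' deposited table). The integrin genes Itgb1 (107 and 29.9 FPKM) and Itgb4 (206 and 59.7 FPKM) were higher as well, and the tetraspanin gene Cd82 was lower (69.0 and 532 FPKM), each with adjusted p 0.000212 in the authors' deposited table.

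For HFSC against bulk 9 of 23 were higher and 8 lower (median -0.42), beside 19.0% and 24.7% of all loci. For HFSC against CD34a6 10 of 24 were higher and 8 lower (median 0.21), beside 25.2% and 29.0%. Lgr5 stood at 0.299 FPKM and Lgr6 at 0.178 FPKM in HFSC, so that these genes were low where Cd34 and Cd200 were low. Itga2, a collagen receptor subunit, was higher in HFSC than in CD34a6 (29.2 against 8.66 FPKM, adjusted p 0.000212 in the authors' deposited table).

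In the CD34 fractions 1 of 21 was higher and 2 lower in CD34+ (median 0.10), beside 2.08% and 4.71% of all loci. Itgb4, the partner of alpha-6 integrin in hemidesmosomes, was higher in CD34+ (151 against 81.9 FPKM, adjusted p 0.0421 in the authors' deposited table). The tetraspanin genes Cd9 (193 against 353 FPKM, adjusted p 0.0288) and Cd151 (81.6 against 145 FPKM, adjusted p 0.0341) were lower, with p-values from the authors' deposited table. Under the drugs 1 of 20 was called (median 0.15), beside 2.57% of all loci in either direction. It was Plet1, a marker of the follicle junctional zone, higher with dorsomorphin (121 against 63.6 FPKM, adjusted p 0.00479 in the authors' deposited table).

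**Figure D5:**
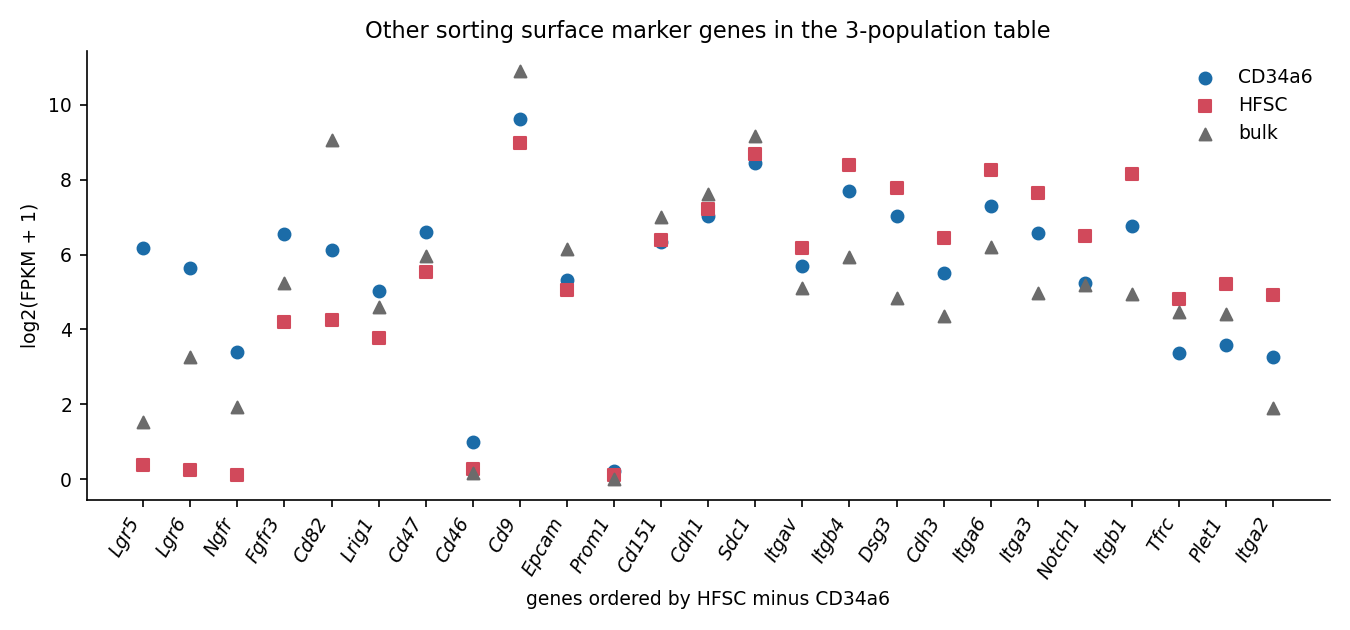
Log2(FPKM + 1) of other surface marker genes used for sorting keratinocytes in CD34a6, HFSC and bulk, 1 point per population, ordered by the difference between HFSC and CD34a6. Lgr5 and Lgr6 lie at the end where CD34a6 is far above HFSC.

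The pattern of each gene over the 7 populations was set against those of 9977 genes, by the root mean square difference of log2(FPKM + 1) after centring each table. Nearest to Cd34 were Bgn (0.45), Cspg4 (0.55) and Lhx2 (0.59), and near to Cd200 were Calml3 (0.22) and Apoe (0.26). Cd24a was nearest to Tpm2 (0.10), Fhl2 (0.14) and Dse (0.15). Cd44 was nearest to Cav1 (0.0461), Dbf4 (0.0566) and Sncg (0.0568), although Sncg did not exceed 5.11 FPKM in any population. Ly6a was nearest to Lce1e (0.23), S100a8 (0.31) and Ly6e (0.37), and Ly6d to Asprv1 (0.17), Lypd5 (0.19) and Cdsn (0.28). Among the 6 genes themselves the closest pair was Cd24a and Cd44 (0.45) and the farthest Cd34 and Ly6a (3.49). These distances describe 7 points that share tables and populations, and carry no test.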

How the data were processed

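Polyadenylated RNA of 21 mouse libraries was sequenced, in 7 groups of 3. The submitters' processing notes name these tools for the first 9 libraries: Cuffdiff, Cufflinks 2.2.1, StringTie 1.1.0, HISAT 0.1.6 and FastQC 0.11.3, while the description in their labels names TopHat2. The notes for the remaining 12 name DESeq2 1.8.1, featureCounts (Subread 1.4.2), TopHat2 2.0.13, cutadapt 1.5 and FastQC 0.11.2. All used GRCm38, but the deposited layout is that of Cuffdiff, so which tool made the p-values of those 12 is not settled.

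Values are FPKM per the file headers, as the authors estimated them over the replicates of a population. The log2 ratios were deposited by the authors as the log2 of the FPKM ratio of a line, and were turned here so that the first-named population is the numerator. Each p-value and q-value is the authors' deposited one, and no p-value was under 5e-05. The score column of test statistics was deposited by the authors and was not used. The q-values equalled a Benjamini-Hochberg adjustment over the tested loci of a table to within 5.3e-07.

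Values went to the populations that each line names, and the column 3C_HFSC was read as the CD34+ fraction, per the labels. Of 222636 lines, 2915 exact repeats were left out. Genes were not tested again here, since the planned count test needs values per library. A pseudocount of 1 FPKM was used for medians and likeness, which understates the differences of low genes. Work was done in Python 3.11.15 with pandas 2.3.3 and numpy 2.4.6. Of the steps, the Benjamini-Hochberg adjustment and the likeness search were tested on simulated data. The 6 genes and the lists were chosen with earlier results of these data known. Named genes were the 6, Cd46, Itga6, up to 6 called genes of each list per comparison (those with the largest differences, and 5 FPKM or more where higher), and the 3 most alike. Other genes named, such as defining markers at or near 0, were chosen after their values were seen. Some list genes were not analysed here, and not every gene the rule takes is reported. Alternatives were other pseudocounts, scalings, adjustments, thresholds and filters.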

Additional observations from a re-analysis of the deposited data

How the results depend on the processing

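The calls of the 6 genes, 29 tested pairs of gene and comparison, were on the same side of the threshold with an adjusted p under 0.01 and with the adjustment made within each pair of populations. With 0.01, fewer loci were called between the CD34 fractions (82 higher against 236, and 215 lower against 536) and between the drugs (68 higher against 145, and 66 lower against 151). Scaling each population to the same summed FPKM moved every log2 ratio of FPKM by 1.17 in CD34a6 against bulk, 0.93 in HFSC against bulk, -0.25 in HFSC against CD34a6, 0.41 in CD34+ against CD34neg and 0.11 for the drugs. The share of higher loci among those called in CD34a6 against bulk went from 47.4% to 59.1%. On log2(value + 1), under that scaling, 13 of the 30 differences of the 6 genes moved by over 1.5-fold or changed direction. Those that changed direction, neither of them called, were Cd34 in HFSC against bulk (-0.25 to 0.61) and Cd200 between the CD34 fractions. Scaling to the 75th percentile, chosen after seeing the data, shifted the log2 ratios of FPKM by at most 0.24 and turned none of the differences of the 6 genes. Smaller pseudocounts made the difference of Cd200 larger, to -5.65 in HFSC against bulk and -6.55 in HFSC against CD34a6 with 0.1 FPKM, and to -5.90 and -6.79 with 0.01 FPKM. The median of the Ly6 and uPAR family in CD34a6 against bulk was -3.29 with a pseudocount of 0.1 and -3.46 over members at 1 FPKM or more, and in HFSC against bulk it was -1.76 with a pseudocount of 0.1.

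No paired analysis was possible because the tables give 1 value per population, and for the same reason no run leaves out a replicate. Read depth is unknown, and genes at 0 have no detection limit here.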

Other observations

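CD24, LY6A and LY6D depend on the GPI anchor pathway, followed in a list of 24 genes. In CD34a6 against bulk 0 were higher and 8 lower, beside 22.0% and 24.3% of all loci, with the same counts at an unadjusted p under 0.05 in the authors' deposited table (median log2 difference -0.38). In HFSC against bulk 1 was higher and 9 lower (median -0.42), beside 19.0% and 24.7% of all loci. In HFSC against CD34a6 5 were higher and 1 lower (median -0.13), beside 25.2% and 29.0% of all loci. Dpm3, a subunit of the dolichol-phosphate-mannose synthase, was at 36.3 FPKM in CD34a6, 26.8 FPKM in HFSC and 156 FPKM in bulk. Piga, the catalytic subunit of the first step, was at 7.37, 13.2 and 4.89 FPKM, and Pgap2, which acts on the lipid of the anchor, rose from 59.4 FPKM in CD34a6 to 117.6 FPKM in HFSC (adjusted p 0.000212 in the authors' deposited table). In the CD34 fractions 1 of 23 was called, beside 6.79% of all loci in either direction. It was Pigc, lower in CD34+ (17.9 against 33.3 FPKM, adjusted p 0.0407 in the authors' deposited table). Under the drugs 0 of 23 were called in the authors' deposited table, beside 2.57% of all loci. At an unadjusted p under 0.05, 1 of the 23 was higher and 0 lower.

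Of 8 genes reported to regulate CD44 splicing, 3 were higher and 0 lower in CD34a6 against bulk (median 0.35), beside 22.0% and 24.3% of all loci, with 3 higher and 2 lower at an unadjusted p under 0.05 in the authors' deposited table. They were Khdrbs1 (51.0 against 25.2 FPKM), Srrm1 (68.6 against 37.0 FPKM) and Hnrnpa1 (25.0 against 14.1 FPKM). In HFSC against bulk 2 were higher and 1 lower (median 0.24), beside 19.0% and 24.7% of all loci. Srrm1 (81.2 against 37.0 FPKM, adjusted p 0.00219) and Khdrbs1 (49.4 against 25.2 FPKM, adjusted p 0.00818) were higher. Esrp2, an epithelial splicing factor, was lower (41.3 against 81.3 FPKM, adjusted p 0.0259), with p-values from the authors' deposited table.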
